A study of Mus musculus with 3 samples.

Results

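Antibody heavy chain variable gene usage was read from bulk RNA sequencing of 3 mouse lungs. The members were all 113 genes that GENCODE M21 annotates as IG_V_gene with a symbol starting Ighv, out of 53342 genes in the counts table, genes with no count included. The usage of a gene is its share of the summed Ighv counts of a lung, in percent. The lungs came from 3 male C57Bl/6 mice, called mouse 4, mouse 5 and mouse 6 after the last digit of each label. Each mouse had microparticles made from Mycobacterium abscessus placed in the trachea, in 50 µL and at an amount equal to 1000000 bacteria, a challenge used to form granulomas. Each then received 5 µg of MIA-602 beneath the skin every day for 3 weeks. MIA-602 blocks the receptor of growth hormone-releasing hormone. Challenge, drug, strain and sex were shared by every mouse, so the 3 lungs form 1 group. Lungs without the challenge or without the drug were not analysed here, and no effect of either can be read from these values.

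A developing B cell joins a single heavy chain variable gene to a diversity and a joining segment, and the joined exon is transcribed with a constant region gene. The variable gene supplies most of the variable domain, including the first and second antigen-contacting loops. Plasma cells hold far more heavy chain transcript than resting B cells, so a share of transcripts is not a share of cells. In whole lung RNA, fewer cells of a type and less RNA per cell cannot be told apart.

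The members lie on the minus strand of chr12:113578504-116000461 (GRCm38, mm10), a span of 2422 kb. The low coordinates are next to the diversity segments and the constant genes. All 113 members had a transcript in GENCODE M21, and 109 of them held the stretch from the conserved first cysteine codon to the conserved tryptophan codon, which encloses the first antigen-contacting loop. That stretch had 45 bases in 92 members, 48 in 6 and 51 in 11. It is printed for the 4 genes with the highest mean usage and for 3 genes whose usage stood apart in mouse 5. Capitals mark the cysteine and tryptophan codons.
Ighv7-3: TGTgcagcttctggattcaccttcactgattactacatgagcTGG
Ighv9-3: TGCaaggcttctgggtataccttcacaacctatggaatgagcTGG
Ighv3-6: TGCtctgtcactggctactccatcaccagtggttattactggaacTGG
Ighv1-26: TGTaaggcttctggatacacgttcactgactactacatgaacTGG
Ighv1-18: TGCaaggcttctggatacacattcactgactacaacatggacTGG
Ighv1-56: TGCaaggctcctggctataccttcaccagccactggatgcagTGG
Ighv3-5: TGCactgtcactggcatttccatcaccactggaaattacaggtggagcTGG

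The first number of a symbol names its family, so the stretches come from families Ighv1, Ighv3, Ighv7 and Ighv9. Ighv1-26 and Ighv1-18 are each other's nearest relatives among the members at 96.9% identity over the aligned transcript. The 109 stretches formed 94 distinct sequences. One sequence was common to 5 members, Ighv1-53, Ighv1-59, Ighv1-69, Ighv1-72 and Ighv1-74, so this loop does not separate them.

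The libraries held 43845715, 35674761 and 31579465 counts in mouse 4, mouse 5 and mouse 6, so that 1 count is worth 0.0232, 0.0277 and 0.0315 CPM (counts per 1000000 after scaling by TMM, a trimmed mean of ratios between libraries). Summed markers of skeletal muscle were at 4185 CPM in mouse 4, against 1524 in mouse 5 and 1311 in mouse 6. Squamous epithelium markers were at 341 CPM in mouse 4, against 126 in mouse 5 and 110 in mouse 6. All 4 muscle markers (Acta1, Ckm, Myh1, Tnnt3) and all 4 squamous markers (Krt13, Krt5, Krt4, Krt15) were highest in mouse 4. Lung markers (Sftpc, Ager, Scgb1a1, Pecam1) summed to 24387, 44827 and 39641 CPM in mice 4, 5 and 6, with none of the 4 highest in mouse 4. The part of this tissue difference in the Ighv values was not tested.

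Ighv transcripts summed to 8656 counts in mouse 4, 4131 in mouse 5 and 4045 in mouse 6. On the CPM scale these were 200.9, 114.2 and 127.6, a mean of 147.6 ± 46.7 (SD, n = 3). Mouse 4 had the highest summed level, and mice 5 and 6 lay close together. Of the 98 members with any count, 62 had their highest CPM in mouse 4, 15 in mouse 5 and 21 in mouse 6. Shares divide out this difference in the total: by share, 35 members were highest in mouse 4, 34 in mouse 5 and 29 in mouse 6.

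Other antibody chains were also highest in mouse 4. The heavy chain constant genes, which carry the class of the antibody, summed to 3051, 1703 and 2280 CPM in mice 4, 5 and 6. The variable genes of the kappa light chain (Igkv, 100 genes) summed to 454, 250 and 306 CPM. Those of the lambda light chain (Iglv, 3 genes) summed to 34.2, 27.1 and 25.9 CPM. Ighv counts were 0.0659, 0.0671 and 0.0560 of the heavy chain constant counts in mice 4, 5 and 6. Per length of exon, this ratio was 0.400, 0.416 and 0.347. Against Igkv counts the Ighv ratio was 0.442, 0.456 and 0.417. The 3 lungs thus differed less in these ratios than in the levels themselves.

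**Figure D1:**
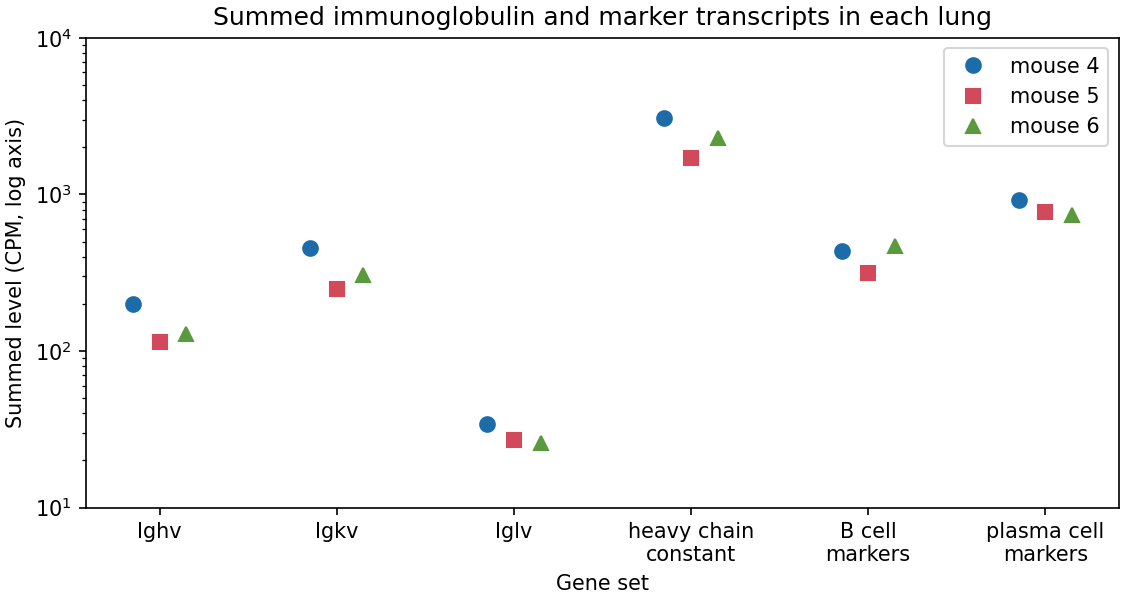
Summed level of each gene set (CPM, log axis) in the lungs of mice 4, 5 and 6, 1 point per lung. Ighv, Igkv, Iglv, heavy chain constant and plasma cell sums are highest in mouse 4, while the B cell marker sum is highest in mouse 6 at 470 CPM.

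Genes that build and express the heavy chain were read from a list of 15. Igha, the constant gene of the mucosal antibody class, led at 1576, 929 and 1220 CPM in mice 4, 5 and 6. Ighm, the constant gene of the first class a B cell makes, was at 777, 419 and 478 CPM. Jchain, which joins antibody units into polymers, was at 401, 273 and 286 CPM. These 3 genes were lowest in mouse 5, and each was highest in mouse 4.

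Among the IgG constant genes, Ighg2c and Ighg2b were likewise highest in mouse 4 and lowest in mouse 5. Ighg2c was at 228, 92.5 and 137 CPM in mice 4, 5 and 6, and Ighg2b at 188, 87.3 and 120 CPM. Ighg1 was at 180 CPM in mouse 4 and 180 in mouse 6, against 99.1 in mouse 5. Ighg3 was highest in mouse 6, at 37.3 CPM, with 18.8 in mouse 4 and 10.4 in mouse 5. Ighd, expressed with Ighm by naive B cells, was also highest in mouse 6, at 107 CPM, with 83.5 in mouse 4 and 64.8 in mouse 5. Ighe, the IgE constant gene, had only 12, 12 and 7 counts.

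Recombination enzymes had low counts. Rag1 and Rag2, which cut the variable genes for joining, had 6, 2 and 3 counts and 0, 0 and 1 counts in mice 4, 5 and 6. Dntt, which adds bases at the joints, had 20, 15 and 21 counts. The receptor partners of membrane antibody, Cd79a and Cd79b, were at 102, 68.3 and 115 CPM and at 57.6, 50.2 and 71.3 CPM. In edgeR, 11 of the 15 genes could be tested for spread between mice against the trend of all genes. Of these, 0 passed at an adjusted p of 0.05 and 7 had an unadjusted p under 0.05, and the smallest adjusted p was 0.806. Over all 17636 genes tested, 0% passed and 4.92% had an unadjusted p under 0.05. The 7 were Cd79a, Ighm, Ighd, Ighg1, Ighg2b, Ighg2c and Ighg3. All were lowest in mouse 5, and they are not separate results.

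The summed markers of B cells were highest in mouse 6, and those of plasma cells in mouse 4. B cell markers (7 of 7 with counts) summed to 435, 316 and 470 CPM in mice 4, 5 and 6. Of these, 2 (Cd22 and Ms4a1) were highest in mouse 4. Plasma cell markers (7 of 7) summed to 916, 774 and 741 CPM, and 5 of the 7 were highest in mouse 4. Sdc1 was highest in mouse 5 and Tnfrsf17 in mouse 6. Jchain, itself an antibody gene, is in the plasma cell list and gave 401, 273 and 286 CPM of those sums. T cell markers (5 of 5) summed to 234, 168 and 270 CPM. Those of lymphoid stroma (Cxcl13, Cr2, Fcer2a, Ccl19 and Ccl21a, 5 of 5) summed to 220, 185 and 238 CPM. Fcer2a is also in the B cell list, so the stroma and B cell sums are not separate. None of these lists had a member at 0 in every lung. Several plasma cell markers, among them Sdc1 and Xbp1, are also expressed by lung epithelium. The part of cell numbers in the Ighv level was not tested.

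Most members were detected. At least 1 count was found for 93 members in mouse 4, 88 in mouse 5 and 90 in mouse 6, a mean of 90.3 ± 2.52 (SD, n = 3). At the smallest Ighv total of the 3 lungs, the expected numbers were 89.8, 87.9 and 90, so that the deeper sampling of mouse 4 gave few of its members. At 10 counts or more there were 73, 70 and 65 members. In all, 83 members were detected in every lung, 15 in 1 or 2 lungs and 15 in none.

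The 15 members with no count in any lung were Ighv5-12-4, Ighv2-7, Ighv7-2, Ighv16-1, Ighv6-5, Ighv6-7, Ighv15-2, Ighv1-16, Ighv1-23, Ighv1-24, Ighv8-4, Ighv1-62-1, Ighv8-9, Ighv8-11 and Ighv8-13. A count of 0 allows a share of up to 0.0347%, 0.0726% and 0.0742% of Ighv counts in mice 4, 5 and 6, taking 3 counts as the floor. Such floors, and the intervals given for shares, cover counting error only, since no molecular identifiers are in the values used. Families Ighv15 and Ighv16, with 1 member each, were at 0 in every lung. The 70 heavy chain variable pseudogenes gave 12, 7 and 8 counts in mice 4, 5 and 6, or 0.138%, 0.169% and 0.197% of the counts of genes and pseudogenes together. Of those pseudogenes 12 had any count, and none exceeded 3 counts in a lung.

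Usage was uneven, and most of the leading genes were common to the lungs. The 10 genes with the highest mean share held 46.8%, 42.0% and 41.9% of Ighv counts in mice 4, 5 and 6, a mean of 43.6% ± 2.83 (SD, n = 3). The 20 highest held 63.9%, 59.3% and 61.9%. The effective number of genes (the exponential of the Shannon entropy, which is the number of equally used genes that would be as even) was 46.2, 51.2 and 49.2, a mean of 48.9 ± 2.48 (SD, n = 3). The inverse Simpson index, which weights the leading genes more, gave 30.5, 36.1 and 34.7. Mouse 4 was the least even by both measures. A share of 1% or more was reached by 31, 31 and 35 members, by 22 of them in every lung and by 45 in at least 1 lung.

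By count, each lung was led by a different gene. In mice 5 and 6 the interval of the leader overlapped that of Ighv7-3, the next gene there, so those leads were within counting error. Ighv7-3 led mouse 4, with 807, 243 and 266 counts and shares of 9.32%, 5.88% and 6.58% in mice 4, 5 and 6. The 95% Wilson interval of its share in mouse 4, 8.73% to 9.95%, lay above those of mouse 5 (5.20% to 6.64%) and mouse 6 (5.85% to 7.38%). Ighv9-3 led mouse 5, with 570, 298 and 216 counts and shares of 6.59%, 7.21% and 5.34%. Its intervals overlapped between mice 4 and 5, and that of mouse 6 (4.69% to 6.08%) lay below mouse 5 (6.46% to 8.04%). Ighv3-6 led mouse 6, with 374, 206 and 289 counts and shares of 4.32%, 4.99% and 7.14%. Its interval in mouse 6, 6.39% to 7.98%, lay above those of both other lungs.

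These 3 genes lie near one another in the locus, Ighv9-3 at chr12:114140692-114141122, Ighv7-3 at chr12:114153180-114153644 and Ighv3-6 at chr12:114288152-114288582. Next by mean share came Ighv1-26, Ighv5-17 and Ighv14-2. Ighv1-26 had 5.91%, 4.19% and 5.32% of Ighv counts in mice 4, 5 and 6. Ighv5-17 had 4.49%, 3.66% and 4.23%, and Ighv14-2 had 3.97%, 3.05% and 2.97%. In the order of mean shares, neighbouring genes often did not differ beyond their spread. Ighv7-3 averaged 7.26% ± 1.82, Ighv9-3 6.38% ± 0.95, Ighv3-6 5.48% ± 1.48 and Ighv1-26 5.14% ± 0.88 (SD, n = 3 each).

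The other genes among the 20 highest were Ighv1-19, Ighv1-53, Ighv1-72, Ighv1-18, Ighv1-78, Ighv8-12, Ighv1-82, Ighv1-74, Ighv6-3, Ighv14-3, Ighv1-64, Ighv1-4, Ighv1-76 and Ighv1-9, with mean shares between 3.30% and 1.38%. Ighv1-19 was highest in mouse 4, at 4.24%, with 3.00% in mouse 5 and 2.67% in mouse 6. Ighv1-53 was lowest in mouse 5, at 1.74%, with 3.47% in mouse 4 and 3.54% in mouse 6. Ighv1-82 was highest in mouse 6, at 3.44%, with 1.22% in mouse 4 and 1.43% in mouse 5. Ighv8-12, Ighv1-64 and Ighv1-4 had overlapping intervals in all 3 lungs.

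**Figure D2:**
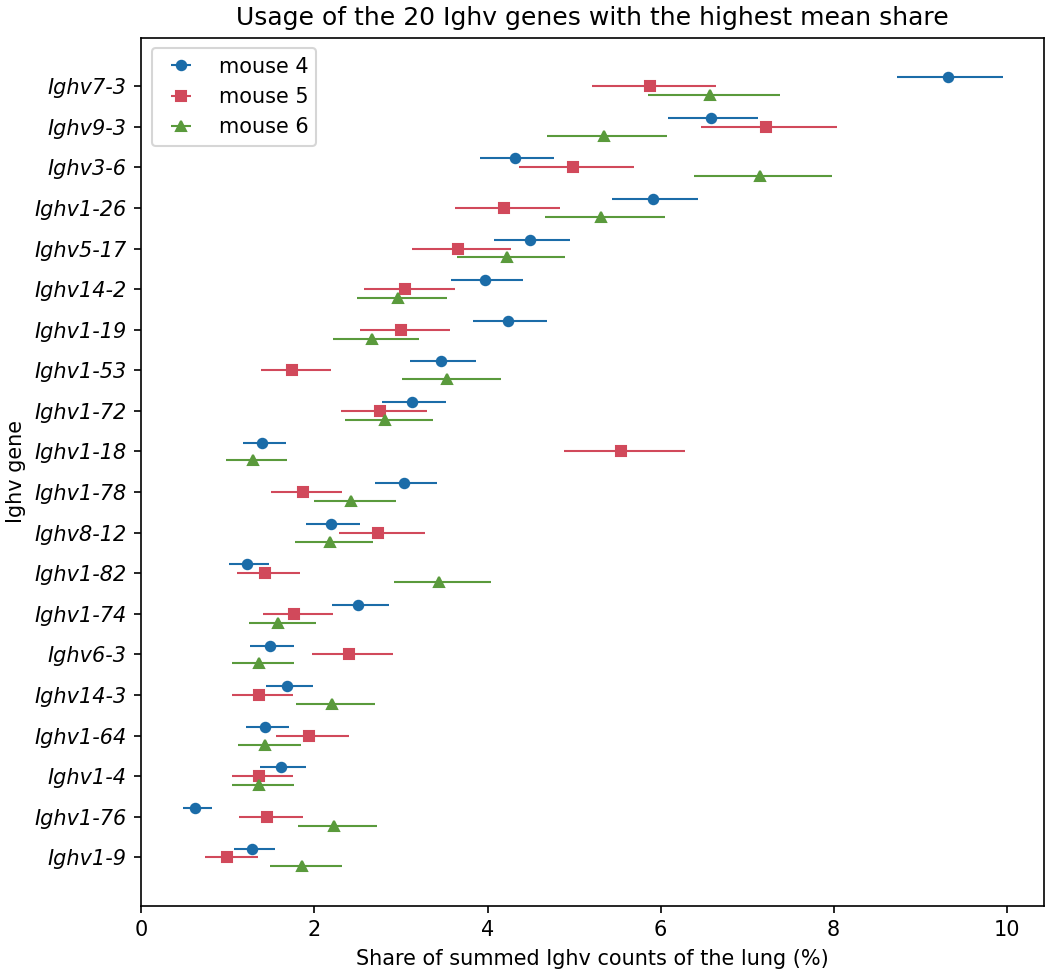
Share of summed Ighv counts (%) for the 20 Ighv genes with the highest mean share, with 1 marker per lung and its 95% Wilson interval as a bar. Ighv7-3 in mouse 4 (9.32%), Ighv1-18 in mouse 5 (5.54%) and Ighv3-6 in mouse 6 (7.14%) lie to the right of the other 2 lungs with intervals apart from them.

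Some genes well described in mice were present at modest shares. Ighv1-72, used in the response of C57BL/6 mice to the hapten NP, had 271, 114 and 114 counts in mice 4, 5 and 6, or 3.13%, 2.76% and 2.82%. Its intervals overlapped in all lungs. Ighv11-2, whose products in B-1 cells bind phosphatidylcholine, had 76, 23 and 26 counts, or 0.88%, 0.56% and 0.64%. Ighv12-3, also used by phosphatidylcholine-binding B-1 cells, had 46, 17 and 8 counts, and Ighv7-1, used by antibodies to phosphorylcholine, had 32, 18 and 5. Both were highest in mouse 4 by count, while by share Ighv7-1 was highest in mouse 5. Ighv5-2, the member nearest the diversity segments and favoured in fetal recombination, had only 5, 1 and 2 counts. Ighv1-85, at the other end of the locus, had 45, 13 and 17 counts.

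Usage of the 113 members was alike between lungs but not within counting error. The shares of a pair of lungs overlapped (the sum over genes of the smaller share) by 79.5% for mice 4 and 5, 82.1% for mice 4 and 6 and 78.0% for mice 5 and 6. Across the 113 genes, Spearman's rho of the shares was 0.905, 0.926 and 0.879 for these pairs, and Pearson's r was 0.869, 0.911 and 0.843. The genes of a lung share 1 library and sum to a fixed total, so these values describe the lungs and carry no test. Wilson intervals did not overlap for 23, 25 and 22 members in the 3 pairs, and for 43 members in at least 1 pair. No such count was made over all genes. These numbers, and those of the next paragraph, therefore cannot be called particular to Ighv.

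Mouse 5 had the most members whose interval of the share lay above those of both other lungs. There were 8 such members in mouse 5, 6 in mouse 6 and 4 in mouse 4. In mouse 5 these were Ighv1-18, Ighv6-3, Ighv1-80, Ighv3-5, Ighv1-56, Ighv9-2, Ighv1-47 and Ighv9-4, and among them are the largest ratios between lungs for members with a count in every lung. Ighv1-56 had 10, 96 and 3 counts in mice 4, 5 and 6, or 0.12%, 2.32% and 0.07%. Its highest share was 31.3 times its lowest. Ighv3-5 had 12, 92 and 7 counts, or 0.14%, 2.23% and 0.17%, with a ratio of 16.1.

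Ighv1-18 had 121, 229 and 52 counts in mice 4, 5 and 6, or 1.40%, 5.54% and 1.29%. It was the third most used gene of mouse 5, behind Ighv9-3 and Ighv7-3, although its near relative Ighv1-26 was lowest there. Mouse 6 stood above both others at Ighv3-6, Ighv1-82, Ighv1-39, Ighv1-77, Ighv1-52 and Ighv1-61. Ighv1-77 had 29, 12 and 70 counts in mice 4, 5 and 6. Mouse 4 stood above both others at Ighv7-3, Ighv1-19, Ighv1-71 and Ighv5-12, the last with 75, 10 and 11 counts.

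Among members with 1% or more in at least 1 lung, the next largest ratios after that of Ighv1-18 (4.31) were those of Ighv5-16, Ighv1-61, Ighv1-75, Ighv1-76, Ighv1-52 and Ighv1-42, at 3.24 to 4.04 times. Ighv5-16 was at 95, 33 and 11 counts in mice 4, 5 and 6. Over all 45 such members, the median ratio of highest to lowest share was 1.71, and 16 passed 2.

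**Figure D3:**
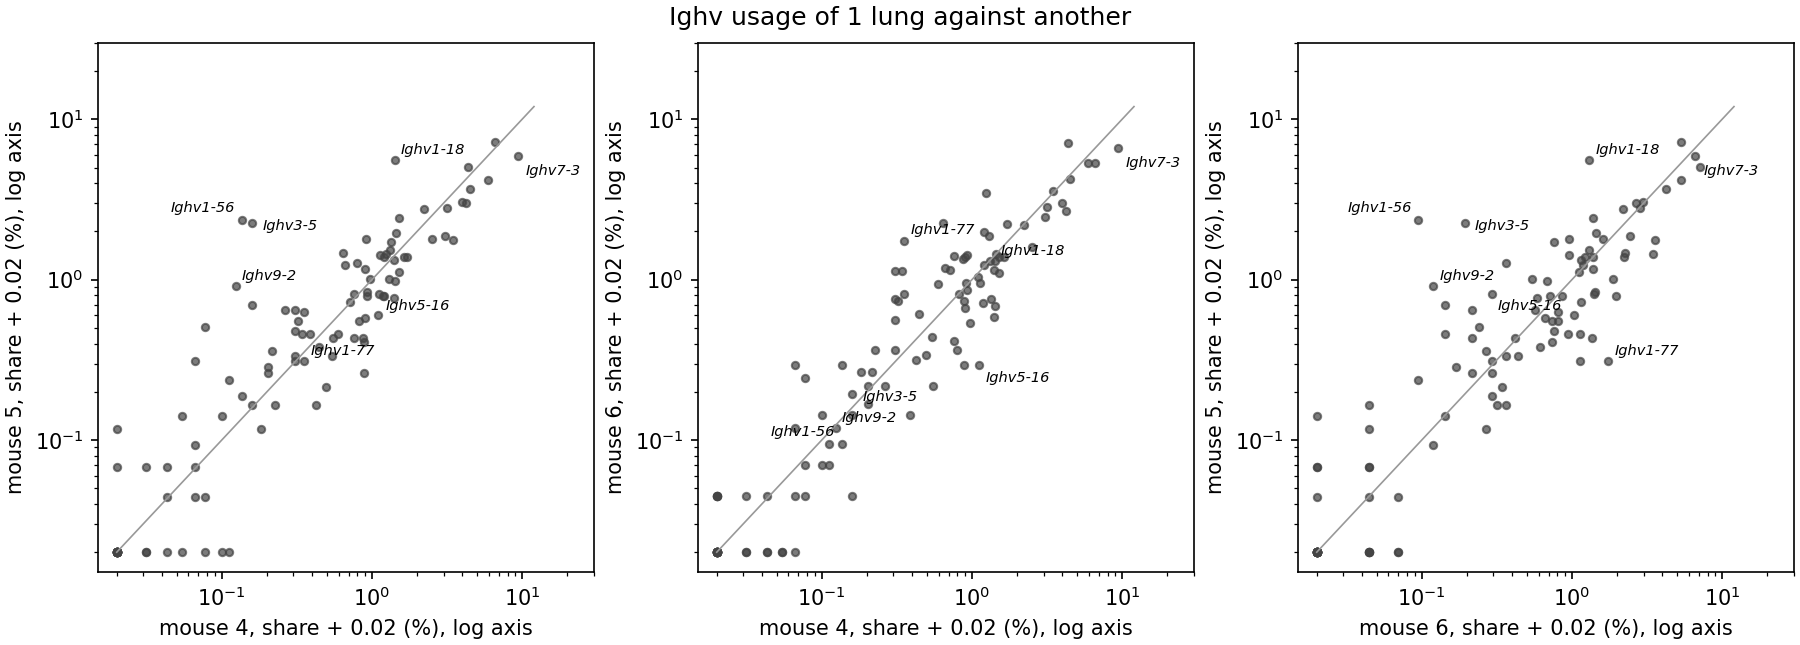
Share of summed Ighv counts in 1 lung against another for all 113 members (%, log axes, with a small constant added so that genes at 0 can be drawn), 1 point per gene, with the line of equal shares. Ighv1-56, Ighv3-5 and Ighv1-18 lie far above the line for mouse 5 against mouse 4 and against mouse 6.

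For the members, the same edgeR test set the variation of each gene over the 3 lungs against the trend of all genes at its level. Of the members, 59 passed the filter on low counts and 54 did not, among them Ighv1-56, Ighv3-5, Ighv12-3, Ighv7-1 and Ighv9-2. With Benjamini-Hochberg adjustment at 0.05, 0 of the 59 members were called, beside 0% of all 17636 genes tested. At an unadjusted p under 0.05 there were 17 of 59 members (28.8%), beside 4.92% of all genes. Limma called 0 members and 0 of all genes. At an unadjusted limma p under 0.05 there were 19 members, and the share of all genes at that level is not given here. DESeq2 marked 0 members as dispersion outliers, beside 102 of all genes tested. The smallest adjusted p of a member was 0.955 in edgeR. The median log2 ratio of a member's spread to the trend was 2.21, beside -0.29 over all genes tested, and it was positive for 52 of 59 members. This test was not scaled to the Ighv total, which was 200.9, 114.2 and 127.6 CPM in mice 4, 5 and 6. The members share that difference, so these counts are not separate results for each gene. Its part in them was not tested.

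The 10 tested members with the smallest unadjusted p were Ighv7-3, Ighv5-12, Ighv1-77, Ighv1-18, Ighv5-16, Ighv1-53, Ighv1-71, Ighv1-19, Ighv1-26 and Ighv1-78. Ighv7-3 came first, at 18.7, 6.72 and 8.39 CPM in mice 4, 5 and 6 (edgeR adjusted p = 0.955). Mouse 4 was the highest lung for all of them except Ighv1-77 and Ighv1-18. With every gene of at least 1 count fitted instead, 13 of 98 members passed the adjusted threshold, beside 2.05% of 30751 genes. Among these 13 were Ighv1-56 (adjusted p = 1.74e-09), Ighv3-5 (6.79e-07) and Ighv7-3 (5.23e-05). The count of 0 after the filter thus does not show that the lungs were alike at these genes.

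Most tested members differed more than 2-fold in CPM between the highest and the lowest lung. This held for 37 of 59 members (62.7%), beside 7.18% of all genes tested and 15.3% of the 6950 genes within the members' range of mean CPM (0.366 to 11.3). The median ratio was 2.29 for the members, 1.24 over all genes and 1.44 within that range. With each member scaled to the Ighv counts of its lung, which sets aside the higher Ighv total of mouse 4, 21 of 59 passed 2-fold. No share over all genes was computed on that scale. The 7.18% and 15.3% are on the CPM scale and are not its background. Without mouse 4 there were 14 of 59 (23.7%, beside 2.08% of all genes), without mouse 5 there were 21 of 63 (33.3%, beside 3.64%) and without mouse 6 there were 33 of 66 (50.0%, beside 4.99%).

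Ighv1, the largest family with 53 of the 113 members (46.9%), held 48.7%, 50.5% and 52.7% of Ighv counts in mice 4, 5 and 6, a mean of 50.6% ± 1.996 (SD, n = 3). Ighv7 held 9.69%, 6.32% and 6.72% with 4 members (3.54%), nearly all of it from Ighv7-3. Ighv9 held 6.87%, 9.08% and 5.83% with 4 members, most of it from Ighv9-3. Ighv14 held 6.69%, 5.45% and 6.11% with 4 members. These 3 small families had larger shares of counts than of genes in every lung.

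Ighv2 and Ighv8, with 9 members each (7.96% of the members), held smaller shares of counts than of genes in every lung. Ighv2 held 4.55%, 3.22% and 4.03% in mice 4, 5 and 6, led by Ighv2-5. Ighv8 held 2.87%, 4.12% and 3.36%, most of it from Ighv8-12 with 190, 113 and 88 counts. Ighv5, with 10 members, held 8.18%, 6.27% and 7.34%, and Ighv3, with 6, held 5.19%, 7.75% and 7.89%. In the smaller families the leading genes were Ighv6-3 (mean 1.75%), Ighv4-1 (1.01%), Ighv10-3 (0.84%), Ighv11-2 (0.69%), Ighv12-3 (0.38%) and Ighv13-2 (0.32%).

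**Figure D4:**
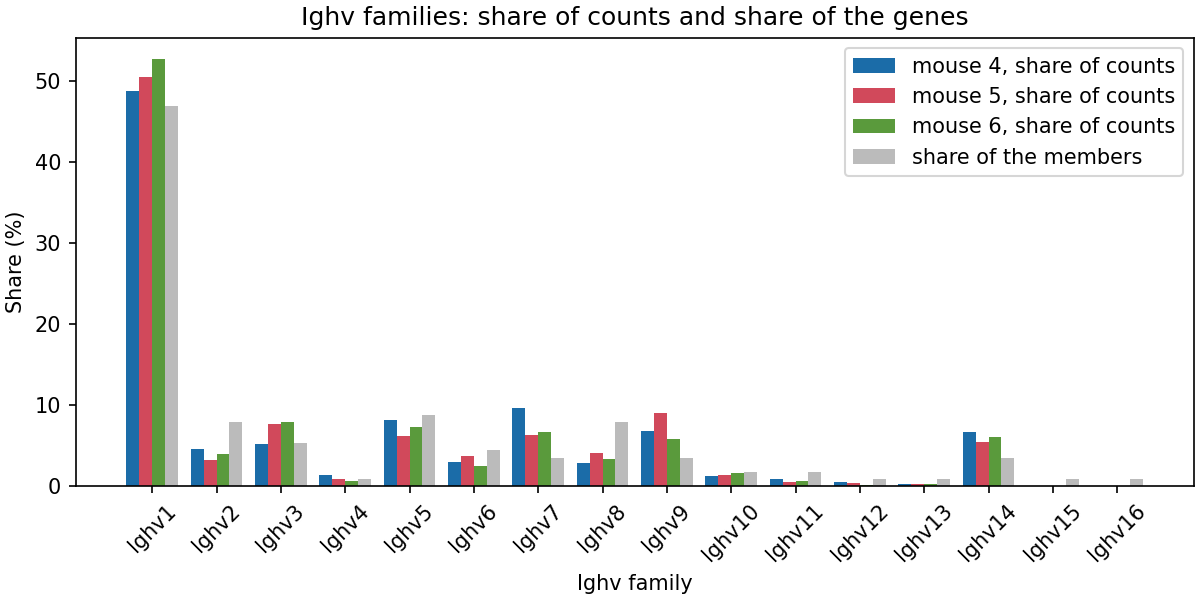
Share of summed Ighv counts (%) of each Ighv family in the lungs of mice 4, 5 and 6, with the family's share of the 113 members in grey. Ighv7, Ighv9 and Ighv14 stand above their share of members in all lungs, Ighv2 and Ighv8 below it, and Ighv15 and Ighv16 are at 0.

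Along the locus, used and unused genes were interspersed. The members were cut into 4 bins by their order from the side of the diversity segments, of 29, 28, 28 and 28 genes. The bin nearest that side held 22.3%, 16.5% and 18.7% of Ighv counts in mice 4, 5 and 6, a mean of 19.1% ± 2.92 (SD, n = 3). The next bin, with Ighv7-3, Ighv9-3 and Ighv3-6, held 30.97%, 33.2% and 31.4%. The third bin held 24.0%, 26.2% and 23.7%, and the bin farthest away held 22.8%, 24.2% and 26.2%. In every lung the second bin was highest. Ighv7-3, Ighv9-3 and Ighv3-6 held most of the counts of that bin in every lung, so its lead was not spread over its members. Each bin had 24 or 25 members with a count in at least 1 lung.

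**Figure D5:**
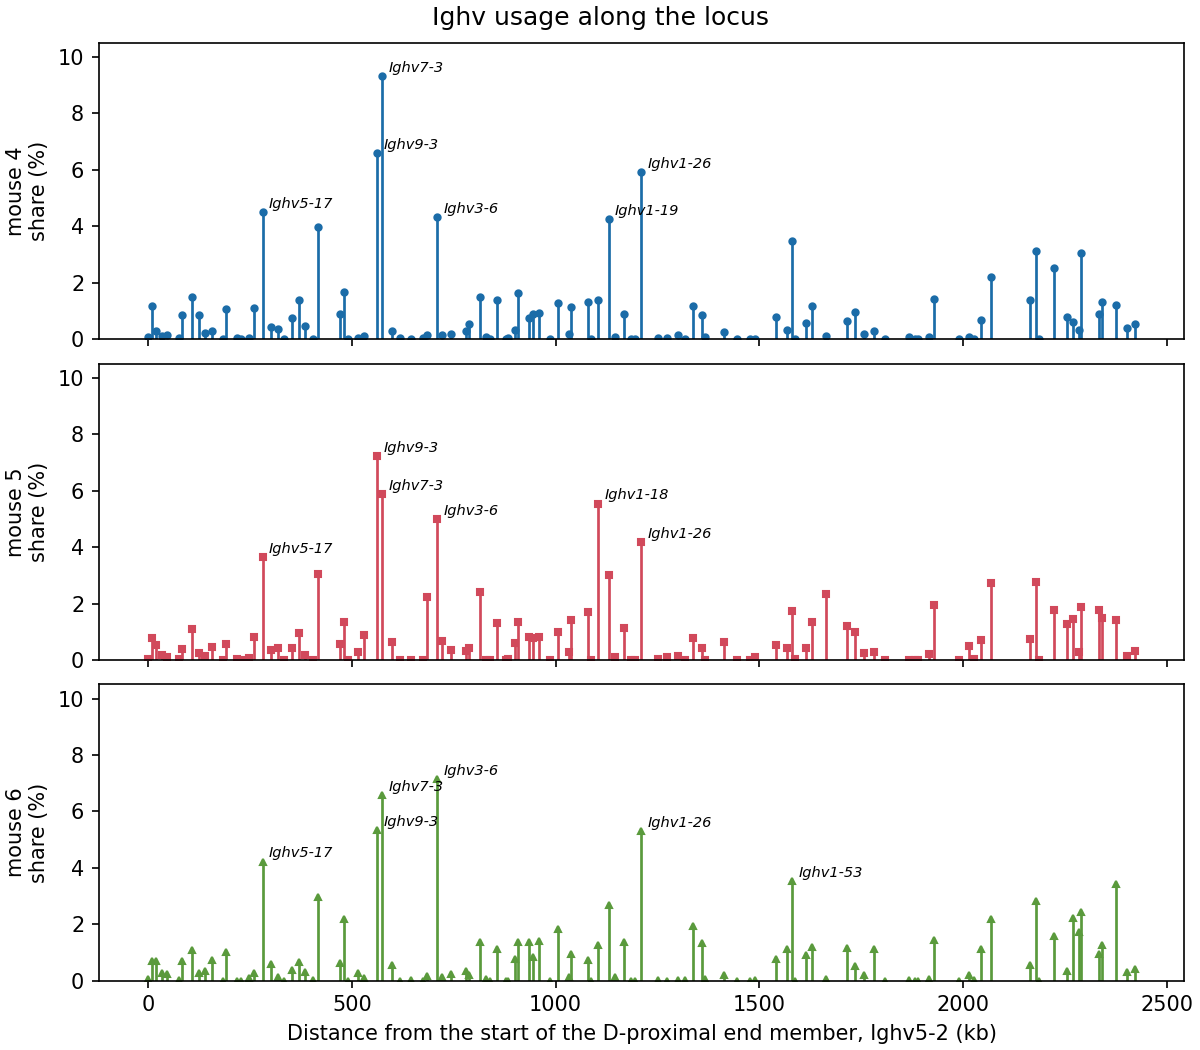
Share of summed Ighv counts (%) of each member against its distance (kb) from the start of Ighv5-2, the member nearest the diversity segments, with 1 panel per lung and the 6 highest genes named. The neighbours Ighv9-3 and Ighv7-3 are among the 6 highest genes of every lung, and Ighv1-18 stands out in the panel of mouse 5.

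Members resemble one another, and reads of near-identical genes can be shared or dropped, so their counts are uncertain. The nearest relative of a member was 73.5% to 99.7% identical (median 94.9%), and for 108 of 113 it was in the same family. Of all 50-base words in a member's transcript, a median of 78.1% occurred in no other GENCODE M21 gene on either strand. The range was 2.58% to 100%. For the 20 highest genes the median was 78.0%, and for the 15 members at 0 in every lung it was 91.9%. Across the 113 members, Spearman's rho between mean share and the percent of words of their own was -0.11, a description over genes that share libraries and ancestry.

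In 2 near-identical pairs, the gene with few or no counts lacked a conserved codon that its relative had. Ighv1-72, with 271, 114 and 114 counts in mice 4, 5 and 6, and Ighv1-62-3, with 1 count in all, differ at 3 of 396 aligned bases. Ighv1-15, with 115, 70 and 30 counts in mice 4, 5 and 6, and Ighv1-23, with 0, differ at 7 of 351. The windows around the conserved cysteine codon of Ighv1-72 and the conserved tryptophan codon of Ighv1-15 are shown with the bases that differ within each pair in capitals.
Ighv1-72: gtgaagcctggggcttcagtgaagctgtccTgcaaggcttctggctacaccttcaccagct
Ighv1-62-3: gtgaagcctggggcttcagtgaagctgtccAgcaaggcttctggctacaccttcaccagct
Ighv1-15: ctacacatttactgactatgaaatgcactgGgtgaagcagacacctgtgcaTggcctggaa
Ighv1-23: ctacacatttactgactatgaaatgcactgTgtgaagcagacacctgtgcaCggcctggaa

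In both pairs the first capital lies in the conserved codon, and the gene with that codon carried all the counts or all but 1. The members without the complete cysteine to tryptophan stretch were Ighv1-16, Ighv1-23, Ighv1-24 and Ighv1-62-3. Together they had 1 count in the 3 lungs, and 3 of the 4 were at 0. The other 12 members at 0 held the stretch, so it did not mark every unused gene. Ighv11-2 and Ighv11-1, 98.9% identical, both held it and were just as uneven. Ighv11-2 had 76, 23 and 26 counts in mice 4, 5 and 6, and Ighv11-1 had 0, 0 and 1. Ighv1-71 and Ighv1-62-2, given next, also both held it. Whether a lost codon has a part in low counts was not tested. Only 7.49% of the 50-base words of Ighv1-72 were its own, and 2.58% of those of Ighv1-71, whose nearest relative Ighv1-62-2 differs at 1 of 359 aligned bases. Ighv1-71 had 120, 31 and 23 counts in mice 4, 5 and 6, and Ighv1-62-2 had 5, 0 and 1. Values of such pairs depend on how shared reads were counted, which is not known here.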

How the data were processed

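Per the labels, total RNA of lung tissue was extracted with a Direct-zol kit and prepared for sequencing with a Nugen mRNA kit. STAR 2.5.2a, Trim Galore 0.6.2, bcl2fastq 2.17 and the build mm10 are listed, per the submitters' processing notes. The deposited values are raw read counts per Ensembl gene, not normalized by the authors. The counting tool, its annotation, its use of strand and its treatment of reads that map to several genes were not given in the sources used here, and each can move counts between similar Ighv genes. Mutated or junction-spanning reads may also have been lost in alignment, which was not tested.

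GENCODE M21 of the same build matched 53237 of 53342 identifiers (99.8%), and 105 were unmatched. It supplied symbols, biotypes, 1-based coordinates and transcript sequences. Shares are counts over summed Ighv counts. The replicates are separate mice by their labels. CPM used TMM factors from edgeR 4.0.16 (R 4.3.3). Spread was tested with filterByExpr and the older robust quasi-likelihood fit with an intercept alone. An upper-tail F test set each gene's dispersion against the trend, over all genes that passed the filter. The test was also tried on counts simulated with the same dispersion for every gene. These data differ from that setting, so the trial gives no support here. Limma 3.58.1 and DESeq2 1.42.0 were alternatives. Wilson intervals (95%, scipy 1.17.1) and Biopython 1.88 alignments were made in Python 3.11.15. Promoter and recombination signal features were not analysed here, and 1 listed pathway gene and the marker list that holds it are not reported here.

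The members, lists and tests were chosen with earlier results of these data known. Named genes are the 20 highest by mean share, the leader of each family and lung, the 10 largest share ratios among members with 1% in any lung, the 10 smallest p, 5 genes described in mice, both ends of the locus and the listed pathway and marker genes. Other genes were named after their values were seen.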

Additional observations from a re-analysis of the deposited data

How the results depend on the processing

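Of 55 alternative settings, 48 kept their value within the spread between mice, or their count within 1.5 times. Leaving out a lung cannot move a mean of 3 lungs past that spread. For the summed level, effective number, Ighv1 share and bin nearest the diversity segments, those settings were thus fixed in advance and carry no support. With the highest gene of each lung left out, the 10 most used genes held 38.8% and the Ighv1 family 54.9%, and both changes follow from the removal. The inverse Simpson index gave an effective number of 33.8 genes by its construction. With every gene of at least 1 count fitted, 13 members were called for spread. Leaving out each mouse in turn gave 14 to 33 members past 2-fold. Scaling to summed Ighv counts gave 21, for which no share over all genes was computed. The summed level was 120.9 CPM without mouse 4, 164 without mouse 5 and 158 without mouse 6. Merging members at 98% identity or more, an alternative chosen after seeing the data, gave 48.4 effective genes and 43.6% for the 10 most used. No paired analysis was possible because the 3 lungs form 1 group. With 3 lungs and Ighv totals of 4045 to 8656 counts, members below the floor of 3 counts cannot be told from unused genes, and promoter and recombination signal features were not run.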
